A study of Rattus norvegicus with 8 samples.

Results

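The blood endothelial cell markers described here are 10 genes looked up by symbol in a table of raw read counts from rat diaphragm, the main muscle of inspiration: Pecam1, Cdh5, Emcn, Egfl7, Aqp1, Vwf, Epas1, Esam, Cldn5 and Tie1. All 10 were among the 17055 rows of the table, and all 10 passed the filter on low counts, as did 10522 rows in all. The 4 MI animals were Sprague-Dawley rats whose left anterior descending coronary artery had been tied off to cause a myocardial infarction (MI), and the 4 Sham animals were Sprague-Dawley rats given the same operation through the chest wall without the tie. Both groups were sampled 16 weeks after surgery, and each animal gave 1 library (MI replicates 1 to 4, Sham replicates 5 to 8). The labels give no measure of infarct size or heart failure. The question is how levels in the diaphragm of animals with an infarct compare with those of operated controls.

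Blood vessels are lined by a single layer of endothelial cells, which in skeletal muscle form mostly capillaries running along the fibres. The cells are held together by adherens junctions and tight junctions, carry a sugar-rich coat on the side of the blood, and store and secrete proteins that act in clotting and vessel growth. The 10 genes cover these parts: junction proteins (Cdh5, Pecam1, Esam, Cldn5), a surface sialomucin (Emcn), a water channel (Aqp1), secreted proteins (Vwf, Egfl7), a receptor (Tie1) and an oxygen-sensitive transcription factor (Epas1).

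Levels are given in CPM, the reads of a gene per 1000000 reads of its library, after TMM scaling, which adjusts library sizes for differences in composition. Log2 fold changes of MI over Sham are given ± SE. Levels are not divided by transcript length, so a level is compared between libraries and not between genes. Library totals were 8566143 to 15944048 counts in MI and 7941402 to 24967251 in Sham. The lowest count of any member in any library was 169, for Vwf in Sham replicate 8, well above a floor of 3 counts, which corresponded to 0.116 to 0.369 CPM and covers counting error only. Skeletal muscle fibre genes summed to 111360 to 148090 CPM in MI and 123560 to 147680 CPM in Sham. The 10 endothelial markers summed to 355.4 to 530.2 CPM in MI and 458.7 to 570.7 CPM in Sham. These sums are also not divided by length, so they are not read as shares of the tissue. In bulk tissue, fewer endothelial cells and less RNA per endothelial cell cannot be told apart.

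Upstream sequence was available in the RefSeq table (GRCr8) for 6 of the 10 genes. Those of Emcn, Aqp1 and Epas1 are shown because these genes had, in turn, the highest fold change, the lowest p and the lowest fold change of the 10. Each is the 250 bases before the annotated start on the strand of the gene, with every GGAA and its reverse complement TTCC in capitals. GGAA is the core of the sites bound by ETS-family factors, a family that includes the endothelial regulators Erg and Fli1. Emcn is chr2:228564289-228564538 (+ strand), Aqp1 is chr4:85812534-85812783 (+ strand) and Epas1 is chr6:13624730-13624979 (- strand).
Emcn: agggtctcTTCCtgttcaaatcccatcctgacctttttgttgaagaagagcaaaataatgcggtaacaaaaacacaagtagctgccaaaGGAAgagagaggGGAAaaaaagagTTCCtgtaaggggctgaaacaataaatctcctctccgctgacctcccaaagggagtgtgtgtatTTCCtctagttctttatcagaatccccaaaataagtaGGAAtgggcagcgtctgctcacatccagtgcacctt
Aqp1: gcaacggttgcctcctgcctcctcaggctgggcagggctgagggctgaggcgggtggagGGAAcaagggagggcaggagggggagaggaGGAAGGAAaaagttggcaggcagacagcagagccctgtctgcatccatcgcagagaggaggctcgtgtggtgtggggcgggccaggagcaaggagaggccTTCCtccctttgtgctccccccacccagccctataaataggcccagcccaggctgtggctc
Epas1: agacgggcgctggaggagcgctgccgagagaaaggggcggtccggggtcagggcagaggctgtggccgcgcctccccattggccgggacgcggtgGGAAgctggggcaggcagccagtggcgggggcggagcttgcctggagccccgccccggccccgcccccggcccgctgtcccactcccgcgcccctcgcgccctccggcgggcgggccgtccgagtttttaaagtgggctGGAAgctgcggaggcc
The Emcn window held 6 matches, the Aqp1 window 4 and the Epas1 window 2. The Tie1 window held 4, the windows of the 2 annotated Egfl7 starts 3 and 2, and the Cldn5 window 0. Of 33469 upstream windows of this length, 93.2% held at least 1 match and the median was 3, so holding the motif was common. The motif TATAAA, searched on both strands, was in the Aqp1 window once and in none of the other member windows, and in 12.9% of all windows. A match is a run of letters and not a shown binding site.

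No member passed the test in either direction. In edgeR's quasi-likelihood test with Benjamini-Hochberg adjustment over all 10522 genes, 0 members were higher and 0 lower in MI at an adjusted p under 0.05, beside a background of 0% in each direction. DESeq2 and limma-voom on the same counts also called 0 members. At an unadjusted p under 0.05, edgeR gave 1 member higher (Emcn, background 3.67% of all genes) and 1 lower (Aqp1, background 4.47%), against 8.14% in either direction. DESeq2 gave 3 members in both directions together, where 7.93% of all genes were under 0.05, and limma-voom gave 4, where 8.54% were. The 10 members had 4 log2 fold changes above 0 and 6 below it, where 51.3% of all genes lay below 0, and their median was -0.139 beside -0.00703 for all genes. The median of the members was -0.0106 without MI replicate 1 and -0.22 without MI replicate 2. The fold changes spanned 0.716-fold for Epas1 to 1.23-fold for Emcn.

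**Figure D1:**
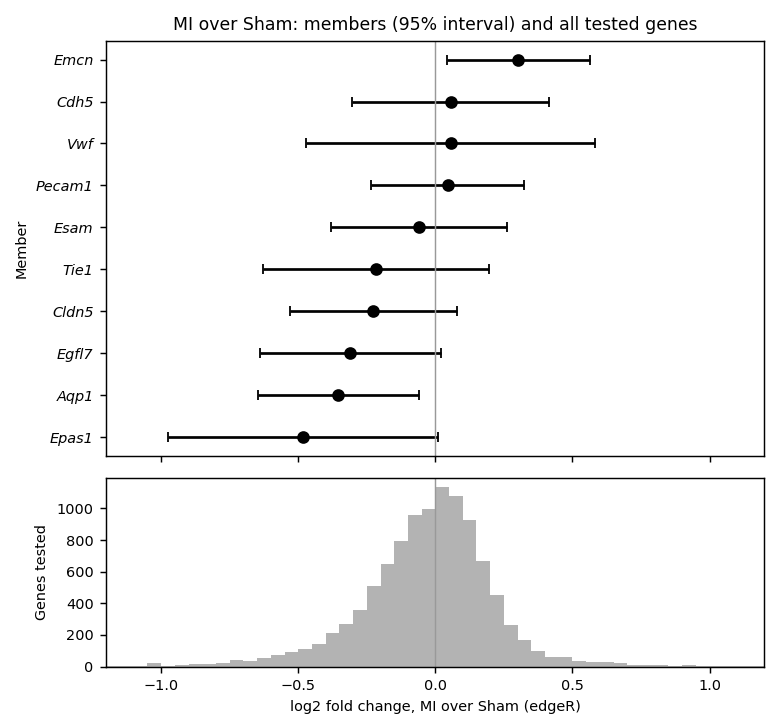
Log2 fold change of MI over Sham for the 10 members (upper panel, points with 95% intervals from the edgeR fit) above the distribution of the same quantity over all tested genes between -1.2 and 1.2 (lower panel). The members spread on both sides of 0, from -0.48 for Epas1 to 0.30 for Emcn, and the intervals of Emcn and Aqp1 lie on either side of 0 without crossing it before adjustment.

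Of the junction proteins, Cdh5, Pecam1 and Esam had log2 fold changes within 0.06 of 0. Cdh5, or VE-cadherin, the adhesion molecule that joins neighbouring endothelial cells, was at 31.4, 45.3, 33.3 and 28.3 CPM in MI replicates 1 to 4, against 32.9, 39.7, 34.2 and 26.2 CPM in Sham replicates 5 to 8. The 2 groups covered nearly the same range, with the highest value in MI replicate 2 and the lowest in Sham replicate 8. The log2 fold change was 0.06 ± 0.16 (SE), with an edgeR adjusted p of 0.934, and its sign turned without MI replicate 2 or Sham replicate 8. The 95% interval ran from 0.811-fold to 1.33-fold.

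Pecam1 (CD31), an adhesion molecule at the contacts between endothelial cells that is also found on platelets and leukocytes, was at 51.9, 72.8, 60.2 and 74.5 CPM in MI, against 60.4, 58.7, 73.5 and 58.4 CPM in Sham. MI held both the lowest and the highest library. The log2 fold change of 0.04 ± 0.13 had an interval of 0.849-fold to 1.25-fold (edgeR adjusted p = 0.932). Its sign turned without MI replicate 2 or MI replicate 4. Esam, an immunoglobulin-family protein of endothelial tight junctions, was at 25.7, 41.7, 28.2 and 36.6 CPM in MI, against 34.5, 33.1, 37.4 and 32.5 CPM in Sham. Here the Sham libraries sat close together, and MI replicates 1 and 3 lay below all of them while MI replicate 2 lay above. The log2 fold change was -0.06 ± 0.15 (edgeR adjusted p = 0.917), and its sign turned without MI replicate 1 or MI replicate 3.

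Cldn5, the main claudin of endothelial tight junctions, was at 18.1, 21.1, 20.6 and 23.3 CPM in MI, against 18.2, 25.6, 27.7 and 25.3 CPM in Sham. All 4 MI libraries were below 3 of the Sham libraries, and Sham replicate 5 fell among the MI values. The means were 20.8 ± 2.13 CPM in MI and 24.2 ± 4.13 CPM in Sham (SD, n = 4 each). The log2 fold change, -0.23 ± 0.14, did not pass (edgeR adjusted p = 0.665). It stayed below 0 without each library in turn, between -0.35 without Sham replicate 5 and -0.16 without Sham replicate 7. Adjusted for the range of the animal numbers it was -0.13.

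Emcn, endomucin, a sialomucin of the endothelial surface that is found on capillaries and veins more than on arteries, was the highest member relative to Sham. It was at 50.0, 46.5, 42.3 and 61.3 CPM in MI, against 36.7, 43.8, 42.0 and 39.3 CPM in Sham. MI replicates 1, 2 and 4 lay above every Sham library, while MI replicate 3 lay below Sham replicate 6. The means were 50.0 ± 8.14 CPM in MI and 40.4 ± 3.11 CPM in Sham (SD, n = 4 each). The resulting log2 fold change, 0.30 ± 0.12, did not pass (edgeR adjusted p = 0.601). It was above 0 in all 17 alternative fits, between 0.19 without MI replicate 4 and 0.38 without MI replicate 3.

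Aqp1, the water channel of capillary endothelium, was at 73.6, 94.5, 70.8 and 81.7 CPM in MI, against 94.8, 98.4, 129.0 and 87.0 CPM in Sham. MI replicates 1, 3 and 4 were below every Sham library, and MI replicate 2 lay between Sham replicates 8 and 5. The means were 80.2 ± 10.6 CPM in MI and 102.3 ± 18.4 CPM in Sham (SD, n = 4 each). On the log2 scale the difference was -0.35 ± 0.13 and did not pass (edgeR adjusted p = 0.601). Without Sham replicate 7, the highest library, it was -0.23, and no alternative turned its sign. Aqp1 is also made in red blood cells and mesothelium. Red blood cell genes summed to 384.6 to 846.8 CPM in MI and 247.3 to 398.2 CPM in Sham, with 7 of 7 tested genes above 0 and at an unadjusted p under 0.05. Hba2, a globin gene whose reads may be shared with its near-identical copy Hba1, was at 89.0 ± 24.8 CPM in MI and 42.3 ± 11.4 CPM in Sham (SD, n = 4 each), and DESeq2 called it at an adjusted p of 0.00256, whereas edgeR called 0 genes of the list. With limma-voom the adjusted p of Hba2 was 0.57. Mesothelial genes summed to 83.2 to 394.5 CPM in MI and 244.1 to 468.9 CPM in Sham, with 5 of 6 below 0 and a median of -0.173, or 0.118 without Sham replicate 8. The part of these cells in the Aqp1 value was not tested.

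Of the other aquaporins, 8 were in the table and 2 were tested. Aqp4, the water channel of fast muscle fibres, was at 219.6 ± 38.5 CPM in MI and 216.5 ± 35.4 CPM in Sham (SD, n = 4 each). Its log2 fold change, 0.02 ± 0.14, took either sign depending on the setting. Aqp7, which carries glycerol in fat cells and has also been described in capillaries, had a log2 fold change of 0.08 ± 0.13. Neither passed in edgeR (adjusted p = 0.974 for Aqp4 and 0.871 for Aqp7).

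The ratio of Emcn to Aqp1 within a library was 0.679, 0.492, 0.597 and 0.750 in MI replicates 1 to 4, against 0.387, 0.445, 0.326 and 0.452 in Sham replicates 5 to 8. The groups did not overlap, with means of 0.630 ± 0.111 in MI and 0.402 ± 0.059 in Sham (SD, n = 4 each). This pair was picked after the values were seen, as the members with the smallest p on either side, so the gap is a description and carries no test. Because neither count is divided by transcript length, the ratio is read across libraries only.

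**Figure D2:**
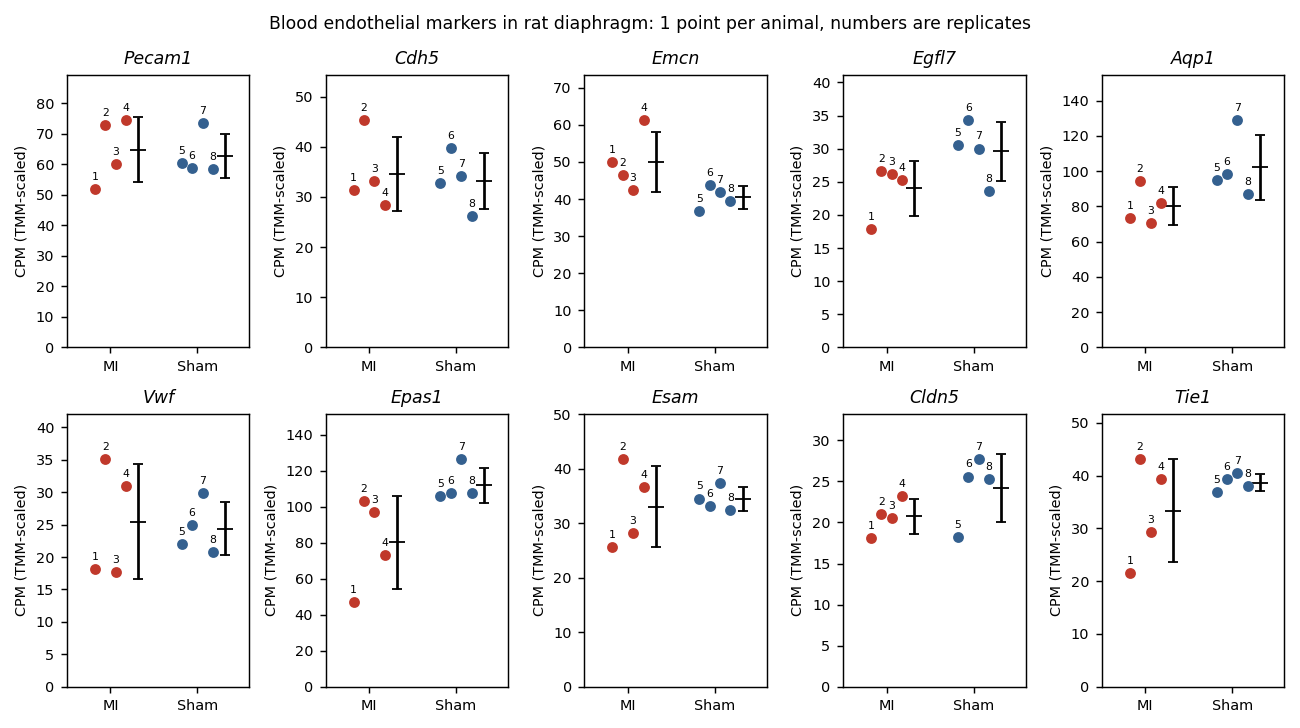
TMM-scaled CPM of each member in every library (points, numbered by replicate), with MI in red on the left and Sham in blue on the right of each panel, and the mean with SD as a black bar. For Emcn 3 of the MI points lie above every Sham point, for Aqp1 3 and for Epas1 4 lie below every Sham point, and in Epas1 and Tie1 the MI points spread far wider than the Sham points.

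Among secreted products, Vwf, von Willebrand factor, which tethers platelets to injured vessel walls, varied widely among the MI animals. It was at 18.1, 35.1, 17.8 and 31.0 CPM in MI, against 22.0, 24.9, 29.9 and 20.8 CPM in Sham. MI replicates 1 and 3 were below all Sham libraries, and MI replicates 2 and 4 were above all of them. The log2 fold change of 0.06 ± 0.23 had a 95% interval of -0.47 to 0.58 (edgeR adjusted p = 0.955), and its sign turned with limma-voom and without MI replicate 2, MI replicate 4, Sham replicate 5 or Sham replicate 8. Vwf is also made by megakaryocytes and carried in platelets. Platelet genes summed to 6.11 to 58.3 CPM in MI and 5.93 to 9.45 CPM in Sham, and the 58.3 CPM were in MI replicate 4, the library with the next highest Vwf, while MI replicate 2, the highest for Vwf, had the lowest MI sum. The part of platelets in the Vwf values was not tested.

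Egfl7, a secreted protein with epidermal growth factor repeats that guides the forming vessel tube, was at 17.9, 26.7, 26.1 and 25.3 CPM in MI, against 30.6, 34.3, 30.0 and 23.6 CPM in Sham. MI lay below 3 of the Sham libraries throughout, and below Sham replicate 8 in MI replicate 1 only. The means were 24.0 ± 4.12 CPM in MI and 29.6 ± 4.45 CPM in Sham (SD, n = 4 each). On the log2 scale the difference was -0.31 ± 0.15 (edgeR adjusted p = 0.623), or -0.20 without MI replicate 1. In GRCr8 the gene overlaps Agpat2. Kits of this type keep no strand, so reads from such an overlap cannot be assigned by strand. How the counting, with build rn5 named, treated such reads is not known. Agpat2 itself had a log2 fold change of -0.04 ± 0.27. Egfl7 also carries in an intron the microRNA miR-126, known in mouse and fish for its part in vessel integrity, whose 3p arm is shown with its seed, bases 2 to 8, in capitals.
rno-miR-126a-3p: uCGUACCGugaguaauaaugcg
The row named Mir126 was listed at 0 in every library. Kits of this type copy RNA from poly(A) tails, which mature microRNAs lack, and the level of the mature microRNA was not analysed here.

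Tie1, the endothelial receptor tyrosine kinase that modulates signalling of the angiopoietin receptor Tek, was at 21.6, 43.1, 29.4 and 39.3 CPM in MI, against 37.0, 39.4, 40.4 and 38.0 CPM in Sham. The 4 Sham animals lay within 1.09-fold of each other and the 4 MI animals within 2.00-fold. The means were 33.3 ± 9.74 CPM in MI and 38.7 ± 1.53 CPM in Sham (SD, n = 4 each). The log2 difference was -0.22 ± 0.19 (edgeR adjusted p = 0.746), or -0.06 without MI replicate 1. For Tek the log2 difference was 0.14 ± 0.14 (edgeR adjusted p = 0.792).

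Epas1, or HIF-2alpha, the oxygen-regulated transcription factor that is abundant in endothelium and also made in other cells, had the lowest fold change of the members. It was at 47.1, 103.4, 97.2 and 73.3 CPM in MI, against 106.2, 107.8, 126.5 and 107.6 CPM in Sham. All 4 MI values lay below all 4 Sham values, and it was the only member of the 10 whose groups did not overlap. Over all genes, 2.46% had MI wholly below Sham, 2.09% had MI wholly above it and 4.55% were apart in either direction. The gap was narrow, with MI replicate 2 at 103.4 CPM and Sham replicate 5 at 106.2 CPM. The means were 80.2 ± 25.6 CPM in MI and 112.0 ± 9.66 CPM in Sham (SD, n = 4 each). The log2 fold change, -0.48 ± 0.22, did not pass (edgeR adjusted p = 0.610). Without MI replicate 1, the lowest library, the log2 fold change was -0.30.

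Genes around the HIF pathway were divided. Of 17 tested partners, regulators and hypoxia-responsive genes, 9 had a log2 fold change above 0 and 8 below it, 0 passed in either direction in edgeR, 2 higher and 2 lower were at an unadjusted p under 0.05, and the median was 0.0566, or -0.0231 without MI replicate 2. Hif1a, the sister factor of Epas1, had a log2 fold change of 0.12 ± 0.10. Adm, adrenomedullin, a vasodilator peptide induced by hypoxia, was at 8.25 ± 0.804 CPM in MI and 10.8 ± 1.63 CPM in Sham (SD, n = 4 each), with no overlap and a log2 fold change of -0.39 ± 0.14. Adm was named for a small p, which favours groups lying apart, and 2.46% of all genes had MI wholly below Sham. Bnip3, a mitophagy receptor, had 0.26 ± 0.11 and Cited2, a hypoxia-induced inhibitor of HIF activity, 0.34 ± 0.15. The edgeR adjusted p was 0.601 for Adm and Bnip3 and 0.605 for Cited2.

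Levels varied widely between MI animals. Summed over the 10, the level was 355.4, 530.2, 425.8 and 474.7 CPM in MI replicates 1 to 4, against 473.1, 505.7, 570.7 and 458.7 CPM in Sham replicates 5 to 8. MI replicate 1 was the lowest library of all and had 1 of 10 members (Emcn) above its own mean over the 8 libraries, while MI replicate 2 had 9 of 10 above. In MI replicate 1 the deviations from a gene's own mean reached -0.97 on the log2 scale for Epas1 and -0.71 for Tie1. The SD of log2 CPM was larger in MI than in Sham for 8 of the 10 members, all except Aqp1 and Cldn5, where this held for 57.0% of all tested genes.

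**Figure D3:**
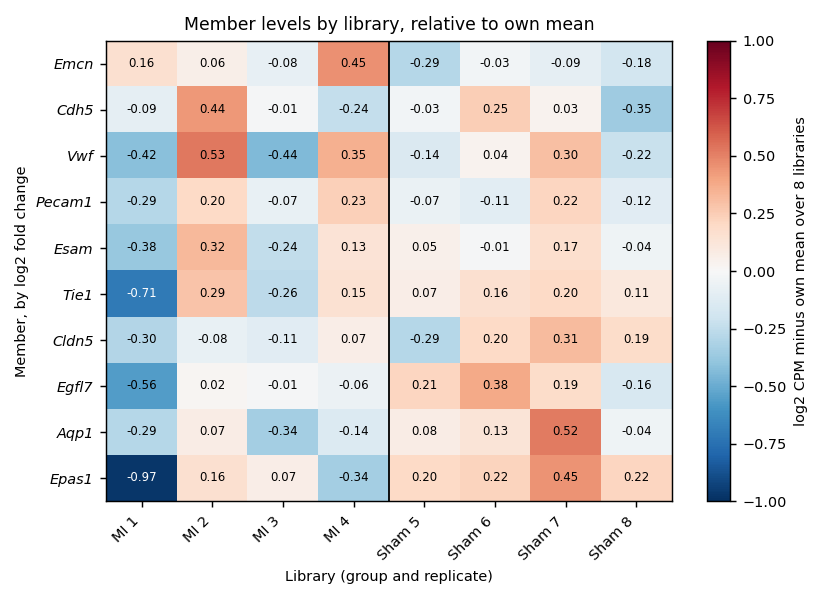
Log2 CPM of each member in each library minus the mean of that member over the 8 libraries, with MI on the left of the line and members ordered by log2 fold change from the top. MI replicate 1 is blue for all members but Emcn, MI replicate 2 and Sham replicate 7 are each red for 9 of 10, and the Emcn row at the top runs apart from the Epas1 row at the foot.

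Most members went up and down together across the 8 libraries. As a description over libraries that also share depth and tissue content, 38 of the 45 pairs had a Pearson r above 0, with a median of 0.447. The pair with the highest r was Vwf with Esam (0.928), followed by Esam with Tie1 (0.915). Set against the mean of the other 9 after standardising each gene, Esam had an r of 0.897, Tie1 0.892 and Vwf 0.860, while Cdh5 had 0.353 and Emcn -0.116. The lowest pair was Emcn with Epas1 (-0.622), and Emcn was in all but 1 of the 7 pairs below 0.

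The level of a member relative to the other 9 in its own library gave a second view. Pecam1 exceeded the mean log2 CPM of the others by 0.697 to 0.888 in MI and by 0.440 to 0.681 in Sham, the only one of the 10 whose groups lay apart on this measure. In CPM, Pecam1 overlapped between the groups, with a log2 fold change of 0.04 ± 0.13. The others it is set against include Epas1 (-0.48), Aqp1 (-0.35) and Egfl7 (-0.31), the members with the lowest log2 fold changes. The share of all genes lying apart on such a measure was not computed. Emcn lay at -0.020 to 0.745 in MI and -0.214 to 0.004 in Sham. Epas1 lay at 0.648 to 1.551 in MI and 1.413 to 1.613 in Sham, the 3 lowest values belonging to MI. These are log2 differences without length correction and are compared across libraries only, with no test.

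Outside the list, the genes whose log2 CPM ran most like the standardised mean of the 10 members were sought among 7978 genes with a mean of at least 5 CPM. The 6 with the highest Pearson r over the 8 libraries were Polr3b (0.963), a subunit of RNA polymerase III, Kif16b (0.958), a kinesin of endosomes, Swap70 (0.954), Tmbim1 (0.945), St3gal4 (0.941), a sialyltransferase, and Galnt18 (0.937), an enzyme that starts O-linked sugar chains. Spearman's rank correlation lay between 0.881 and 0.952, and without MI replicate 1 and Sham replicate 7, the libraries farthest from the median, r lay between 0.830 and 0.941. They were picked as the highest of 7978 over 8 points, so the r values carry no p. Their log2 fold changes lay between -0.29 for Galnt18 and -0.02 for Kif16b.

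Other genes of vascular endothelium were also divided. Of 30 further pan-endothelial genes, 27 were in the table and 25 were tested, 13 above 0 and 12 below, with 0 passing in either direction in edgeR, 1 higher and 1 lower at an unadjusted p under 0.05, and a median of 0.0261 that lay between -0.0819 without MI replicate 2 and 0.0877 without MI replicate 1. Kdr, the main VEGF receptor of blood endothelium, was at 70.1 ± 14.3 CPM in MI and 68.7 ± 4.50 CPM in Sham (SD, n = 4 each). Its log2 fold change, 0.03 ± 0.13, was below 0 with limma-voom and without MI replicate 2, MI replicate 4 or Sham replicate 8. Flt1, a VEGF receptor that also acts as a decoy, had -0.13 ± 0.25, or 0.04 without Sham replicate 7. Calcrl, the receptor for adrenomedullin and calcitonin gene-related peptide, was at 19.6, 15.5, 19.5 and 19.6 CPM in MI, against 11.8, 15.8, 10.9 and 12.2 CPM in Sham. Only Sham replicate 6 reached the lowest MI library, and the log2 fold change was 0.55 ± 0.14 (edgeR adjusted p = 0.601). The other genes of this list with the smallest p were lower in MI by value, Arhgef15 at -0.27 ± 0.11 and Shank3, a scaffold protein, at -0.42 ± 0.27, and neither passed in edgeR (adjusted p = 0.601 for Arhgef15 and 0.682 for Shank3). Cd34 was listed at 0 in every library, as was the fibroblast collagen gene Col1a2. The fibroblast collagen gene Col1a1, by contrast, had means of 135.8 CPM in MI and 122.7 CPM in Sham. Because the counting program and annotation were not given, the 0 rows are not read as absence of the RNA.

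Capillary, arterial and venous genes, from short lists, gave 0 calls each in edgeR. The capillary and lipid-transport list had 8 of 10 tested genes above 0, their median being 0.131, and 0 at an unadjusted p under 0.05. Without MI replicate 4 the median was 0.0033. MI replicate 4 had the highest sum of these genes (4507 CPM, against 2827 to 3701 CPM in the other MI libraries and 2851 to 3857 CPM in Sham) and of adipocyte genes (172.2 CPM, against 29.1 to 96.7 CPM in the other MI libraries and 32.3 to 86.9 CPM in Sham). Of 5 adipocyte genes, 4 were above 0, and their part in the capillary values was not tested. The largest part of the capillary sum was Lpl, with means of 2519 CPM in MI and 2465 CPM in Sham (0.03 ± 0.15). Cd36 came next, at 783.7 and 642.1 CPM, so the sum mostly reflects these genes. The capillary genes with the smallest p were Fabp4 (0.26 ± 0.18), Cd36 (0.29 ± 0.19) and Rgcc (0.26 ± 0.17). Fabp4 and Cd36 handle fatty acids and are also abundant in fat or muscle cells. Without MI replicate 4, Fabp4 was at 0.06 and Cd36 at 0.12. The arterial list had 5 of 10 above 0, a median of 0.0526, or -0.0248 without MI replicate 3, and 1 gene in each direction at an unadjusted p under 0.05. Notch1, a receptor of arterial specification that many cells make, was at 20.5 ± 1.65 CPM in MI and 24.8 ± 0.720 CPM in Sham (SD, n = 4 each), and the groups did not overlap (-0.27 ± 0.09, edgeR adjusted p = 0.601). Bmx, a kinase of arterial endothelium, was at 1.42 ± 0.313 CPM in MI and 0.859 ± 0.214 CPM in Sham, also without overlap (0.78 ± 0.31), and Mgp, a matrix inhibitor of calcification that other cells also make, had 0.28 ± 0.16. Bmx was low, not far above the floor of 0.116 to 0.369 CPM. Notch1 and Bmx were named for a small p, which favours groups lying apart, and 4.55% of all genes lay apart in either direction. The venous and activated list had 4 of 6 above 0 and a median of 0.0501, or -0.138 without MI replicate 4, with Tll1, a secreted metalloprotease, at 0.32 ± 0.32, Icam1, a leukocyte adhesion molecule, at -0.24 ± 0.26 and Nr2f2, a factor of venous identity, at 0.09 ± 0.15.

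**Figure D4:**
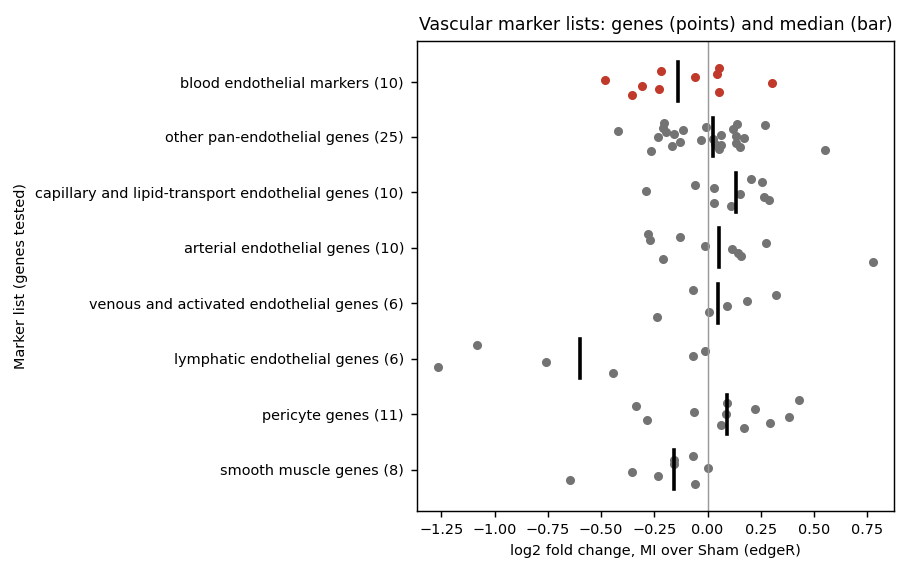
Log2 fold change of MI over Sham for each tested gene (points) of 8 vascular marker lists, with the median of each list as a black bar and the blood endothelial markers in red at the top. The medians of the blood endothelial, pan-endothelial, capillary, arterial and venous lists lie between -0.139 and 0.131, while that of the lymphatic list lies at -0.601.

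Lymphatic endothelium, which lines the vessels that drain tissue fluid, was covered by a short list. Of 6 tested lymphatic genes, 0 were above 0 and 6 below, the median being -0.601, with 3 at an unadjusted p under 0.05 and 0 passing in edgeR. Of the 6, Prox1, the transcription factor of lymphatic identity, was at -0.01 ± 0.15, Pdpn, podoplanin, at -0.07 ± 0.35 and Ccl21, a chemokine that guides leukocytes into lymphatic vessels, at -0.44 ± 0.39. The median lay between -0.848 without MI replicate 1 and -0.416 without Sham replicate 8. Flt4, the receptor for the lymphatic growth factors, had -1.26 ± 0.21 (edgeR adjusted p = 0.286), which DESeq2 called at an adjusted p of 0.000298. With limma-voom the adjusted p of Flt4 was 0.57. Reln, a secreted glycoprotein of lymphatic vessels, was at 7.96 ± 3.23 CPM in MI and 17.1 ± 4.24 CPM in Sham (SD, n = 4 each), and Lyve1, the lymphatic hyaluronan receptor, had -0.76 ± 0.25. Neither the difference between the lymphatic and blood endothelial lists nor the part of other cell types in the lymphatic values was tested. Of 16 growth factor ligands and receptors, which share Kdr, Flt1, Tek and Flt4 with the lists above, 7 were above 0 and 9 below, with 0 passing in edgeR, 3 lower at an unadjusted p under 0.05 and a median of -0.0778, or 0.0709 without MI replicate 1. Figf, also called Vegfd and a lymphatic growth factor, had -1.91 ± 0.30 (edgeR adjusted p = 0.286). DESeq2 called Figf at an adjusted p of 1.36e-05, whereas limma-voom did not (adjusted p = 0.244). Vegfc, a further ligand of Flt4, had -0.41 ± 0.17.

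Pericytes and smooth muscle cells wrap the endothelial tube. Pericyte genes had 8 of 11 above 0, with their median at 0.0890, 1 gene higher at an unadjusted p under 0.05 and 0 passing in edgeR. Rgs5, a regulator of G protein signalling in pericytes, was at 88.1, 131.9, 105.5 and 138.6 CPM in MI, against 88.5, 87.4, 91.5 and 76.6 CPM in Sham. MI replicates 2, 3 and 4 lay above every Sham library, and the log2 fold change was 0.43 ± 0.14 (edgeR adjusted p = 0.601). Abcc9, a channel subunit of pericytes that muscle also makes, had 0.17 ± 0.09 and Higd1b, a mitochondrial protein gene used as a pericyte marker, 0.38 ± 0.22. The 3 pericyte genes below 0 were Notch3 (-0.34 ± 0.21), Cspg4 (-0.28 ± 0.17) and Mcam (-0.06 ± 0.15). The pericyte median was 0.216 without MI replicate 1 and 0.0571 without MI replicate 2. Smooth muscle genes had 1 of 8 above 0 and a median of -0.159, with Myh11, the smooth muscle myosin, at -0.35 ± 0.24, Cnn1, calponin, at -0.64 ± 0.39 and Lmod1, a leiomodin, at -0.23 ± 0.17. Of 15 tested junction and adhesion genes, a list that includes Cdh5, Pecam1, Esam and Cldn5, 8 were above 0 and 7 below, with a median of 0.0443, or -0.0373 without Sham replicate 8, and 2 lower at an unadjusted p under 0.05. Pvrl2, the nectin gene also called Nectin2, was at 2.88 ± 0.157 CPM in MI and 4.52 ± 0.748 CPM in Sham (SD, n = 4 each), without overlap (-0.64 ± 0.18), and Jup, plakoglobin, had -0.29 ± 0.11. Ocln, occludin, a tight junction protein, was at 1.77 ± 0.290 CPM in MI and 1.26 ± 0.202 CPM in Sham, also without overlap (0.47 ± 0.25). Ocln was low beside the floor of 0.116 to 0.369 CPM. Pvrl2 and Ocln were likewise named for a small p, and 4.55% of all genes lay apart in either direction.

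Markers of other cells also varied between libraries. MI replicate 1, the lowest library for the 10 members, was also the lowest for the other pan-endothelial genes (489.9 CPM) and for pericyte genes (353.2 CPM), and MI replicate 2 was the highest for the other pan-endothelial genes (638.0 CPM). Sums of other cell types did not follow the member sums in all libraries. Mesothelial genes, which mark the lining on both faces of the diaphragm, were at 394.5, 83.2, 207.0 and 379.6 CPM in MI replicates 1 to 4, against 244.1, 256.5, 256.5 and 468.9 CPM in Sham replicates 5 to 8. MI replicates 1 and 2 had the highest and the lowest MI sums, the reverse of their member sums, while MI replicate 4 was high in mesothelial genes and second among the MI libraries in members. Lymphatic genes were at 342.6, 162.7, 270.4 and 162.1 CPM in MI replicates 1 to 4, against 226.3, 317.1, 341.3 and 472.2 CPM in Sham replicates 5 to 8. The largest part of the lymphatic sum was Ccl21, with means of 143.2 CPM in MI and 195.2 CPM in Sham. In the mesothelial sum the largest parts were Gpm6a (123.2 and 124.1 CPM) and Msln (86.5 and 120.0 CPM). Each sum therefore mostly reflects these genes. Sham replicate 8 had the lowest Sham member sum and the highest mesothelial and lymphatic sums, whereas Sham replicate 7 had the highest member sum and the next highest Sham lymphatic sum. Lymphocyte genes were high in Sham replicate 7 (44.1 CPM, against 8.56 to 10.6 CPM in the other Sham libraries), the library with the highest Aqp1, Epas1 and Cldn5, and macrophage genes were highest there too, at 385.0 CPM, against 144.6 to 294.5 CPM in MI and 158.7 to 212.2 CPM in the other Sham libraries. Of 11 macrophage genes 10 were below 0, with a median of -0.28 that was 0.0408 without Sham replicate 7. Fibroblast genes summed to 2016 to 3547 CPM in MI and 1897 to 2620 CPM in Sham, with 5 of 9 above 0. Of these 9, 3 were higher and 0 lower at an unadjusted p under 0.05, and 0 passed in edgeR. Their median was 0.0611, or -0.174 without MI replicate 4. Nerve and Schwann cell genes summed to 129.9 to 168.7 CPM in MI and 98.2 to 136.4 CPM in Sham, with 6 of 6 above 0, a median of 0.589 and 0 passing in edgeR, beside 2 at an unadjusted p under 0.05. The part of tissue content (mesothelium, lymphatic vessels, leukocytes, fibroblasts, nerve) in the member values was not tested.

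**Figure D5:**
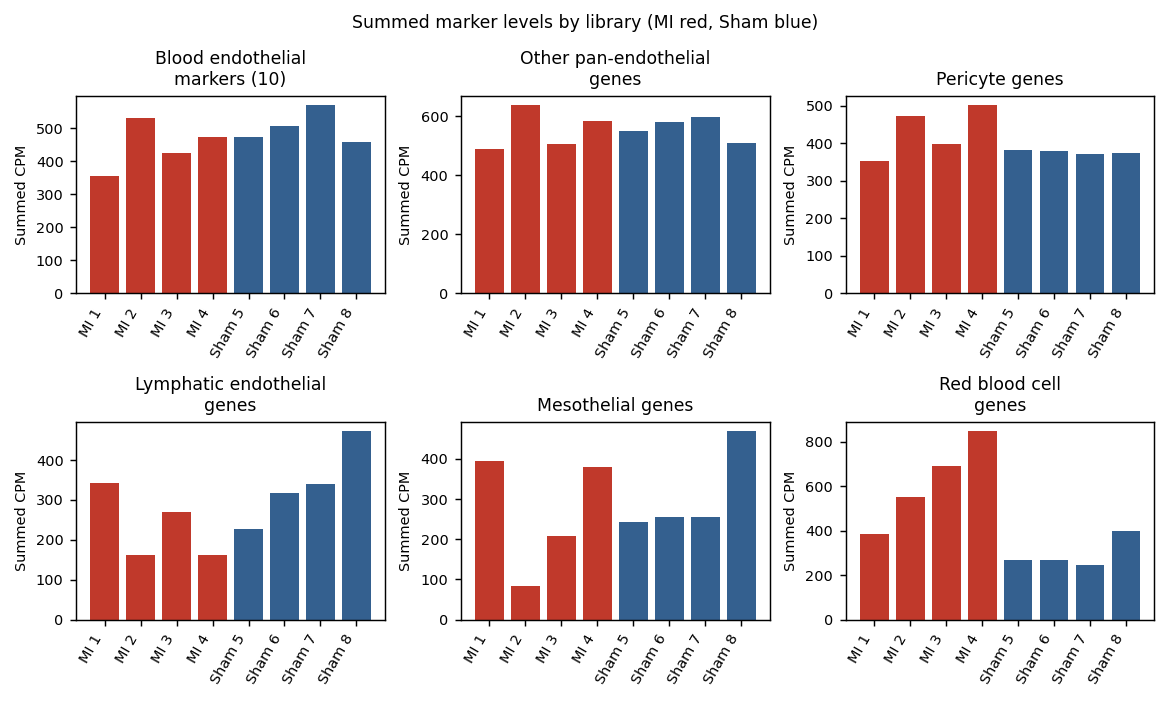
Summed CPM of 6 marker lists in each library, MI in red on the left and Sham in blue on the right of each panel. The blood endothelial and other pan-endothelial sums are lowest in MI replicate 1, where the mesothelial and lymphatic sums are the highest of the MI libraries, and red blood cell genes are higher in MI replicates 2 to 4 than in any Sham library.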

How the data were processed

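Diaphragm RNA was made into libraries with a SMARTer ultra-low-input kit followed by KAPA reagents, per the labels. Such kits copy RNA from its poly(A) tail and record no strand. The authors deposited 1 table of raw counts per gene symbol, with 1 column per animal, and all 8 columns matched a label. STAR 2.5.0a, TopHat, Cufflinks and build rn5 are named per the submitters' processing notes. Neither the counting program nor the annotation was given in the sources used here. The members, gene lists and tests were chosen with earlier results of these data known.

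Computed here from the deposited counts were CPM with TMM scaling and log2 CPM with a prior count of 2. The test was edgeR 4.0.16 in R 4.3.3: filterByExpr, robust quasi-likelihood F test, two-sided, Benjamini-Hochberg adjustment over 10522 genes, threshold 0.05, checked on simulated data. Over all genes the SE had a median of 0.145. Alternatives were RLE scaling, library totals, no filter, 1 CPM in 4 libraries, DESeq2 1.42.0, limma-voom (limma 3.58.1) with and without sample weights, no robust estimation, a threshold of 0.1, the animal number range (labels 253 to 256 against 275 to 288) as a term, a prior count of 0.5 for levels, and each library left out in turn. The labels name no batch. Upstream and miRNA sequences are from RefSeq (GRCr8).

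Named besides the 10 members and Hba2 are up to 3 genes of each vascular list with the smallest p, Kdr, Flt1, Tek, Flt4, Lyve1 and Hif1a, and the 6 genes most like the members. Agpat2, Mir126, Cd34, Col1a1, Col1a2, Lpl, Prox1, Pdpn, Ccl21, Notch3, Cspg4, Mcam, Gpm6a and Msln were added after their values were seen. Other cell types are given by list.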

Additional observations from a re-analysis of the deposited data

Results flagged for a closer look

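Within a group of 4, a library was singled out by Dixon's criterion at the 95% level, which compares its gap to the nearest other library with the range of the group and which chance alone gives in about 1 in 20 groups. Of the 78 sets of 4 examined, 8 met this, 3 of them among the members. Pecam1 was at 73.5 CPM in Sham replicate 7, with the next Sham library at 60.4 CPM. Epas1 was at 126.5 CPM in Sham replicate 7, with the next at 107.8 CPM. Egfl7 was at 17.9 CPM in MI replicate 1, with the next at 25.3 CPM.

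The remaining 5 were in genes and lists around the members. Kdr was at 62.0 CPM in Sham replicate 8, with the next Sham library at 70.7 CPM. In Sham replicate 8, red blood cell genes summed to 398.2 CPM, with the next at 269.6 CPM, and mesothelial genes to 468.9 CPM, with the next at 256.5 CPM. Lymphocyte genes summed to 44.1 CPM in Sham replicate 7, with the next at 10.6 CPM. Skeletal muscle fibre genes summed to 147680 CPM in Sham replicate 6, with the next at 127610 CPM.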

How the results depend on the processing

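No member was called in any of the 17 alternative fits or at a threshold of 0.1. Of the 170 member log2 fold changes under these fits, 159 kept their sign and 11 turned it. DESeq2 called 9 genes higher and 5 lower over the whole table, among the lower ones Flt4 and Figf, among the higher ones 5 red blood cell genes (Hba1, Hba2, Hbb, Hbb-b1 and Alas2), and none of the members, and the cause was not tested. Limma-voom, with and without sample weights, called 0 genes in either direction. Without 1 library at a time, 0 to 1 genes were called higher, and the number of members above 0 was 1 (without MI replicate 2) to 5 (without MI replicate 1), or 2 without MI replicate 4 or Sham replicate 8. Over these 8 fits the log2 fold change of Pecam1 lay between -0.0269 and 0.13, Cdh5 between -0.11 and 0.16, Esam between -0.20 and 0.0399, Vwf between -0.15 and 0.20, Kdr between -0.0598 and 0.13, Flt1 between -0.36 and 0.0425, Aqp4 between -0.10 and 0.13, Polr3b between -0.11 and 0.0228, Kif16b between -0.087 and 0.0391 and Tmbim1 between -0.20 and 0.00534. Limma-voom gave -0.0295 for Vwf and -0.00552 for Kdr, and Aqp4 had -0.0114 with sample weights and -0.0289 with the animal number range. At an unadjusted p under 0.05 there were 856 genes, 2 of them members. There were 514 genes and 1 member without Sham replicate 7, 596 and 1 without MI replicate 4, 1090 and 4 without MI replicate 2, and 899 and 4 with limma-voom. No paired analysis was possible because the labels give each animal its own number and no number occurs in both groups.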
